A study of Mus musculus with 20 samples.

Results

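The dopamine receptors are the cell surface proteins through which dopamine acts, and the mouse genome has 5 genes for them, Drd1 to Drd5. They were followed here in the brains of mice that carried an inducible gene for the HIV-1 protein Tat and were sensitized with methamphetamine (Meth). The members are all known dopamine receptor genes, found through the RefSeq identifier that names each probe, and they are 5 of the 20972 gene symbols on the array. Each had 1 probe printed as 1 spot. The 20 male mice had a C57BL/6J background and fell into 4 groups of 5, with 1 array per mouse. All 20 carried a Tet-binding protein driven by the promoter of GFAP, an astrocyte gene, and all received doxycycline at 100 mg/kg once a day for 7 days. Tat+ mice carried in addition Tat behind the tetracycline responsive element (TRE), so that doxycycline switched Tat on in cells that use the GFAP promoter, without any virus. Tat− mice lacked that second transgene. Over the same period Tat−/Meth and Tat+/Meth mice were injected with 2 mg/kg Meth on 7 consecutive days, and Tat−/Sal and Tat+/Sal mice with saline. By the study's methods, every mouse, those of the saline groups included, was then left without drug for 7 days and given a single Meth dose of 1 mg/kg, and the caudate putamen was dissected 1 h later at an age of 3 to 5 months. The sample labels differ: they name the left hemisphere, a harvest 24 h past the final injection and mice of 6 to 7 weeks, and no later Meth dose. Tat itself was not measured here.

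Dopamine receptors are coupled to G proteins and fall into a pair of classes. The D1-like receptors, Drd1 and Drd5, act through Gs or its striatal relative Golf and raise cyclic AMP, whereas the D2-like receptors, Drd2, Drd3 and Drd4, act through Gi and Go and lower it. In the striatum Drd1 marks the projection neurons of the direct pathway and Drd2 those of the indirect pathway, and Drd2 is also the autoreceptor of dopamine neurons. Drd5 is found in cholinergic interneurons, Drd3 is richest in the ventral striatum, and Drd4 is best known from the cortex. Meth releases dopamine, so these receptors stand between the drug and the neurons that respond to it.

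The tissue carried a striatal profile, with 22 of 22 striatum markers well above background on all 20 arrays. Cortex markers were there too, 9 of 13 on all 20 arrays. So were 6 of 8 thalamus and midbrain markers and 6 of 10 choroid plexus markers. Of 8 hippocampus markers 3 were well above background on all 20 arrays and 1, Neurod1, on none. Of 6 markers of dopamine neurons, Th, Ddc, Slc18a2 and Pitx3 were well above background on 20 arrays, the dopamine transporter Slc6a3 on 12 and En1 on 0. Between 55.3% and 70.9% of the probes of an array were well above background. Slide and group were tied. Slide 1 held the whole Tat−/Meth group and nothing else. Slide 2 held the whole Tat−/Sal group with Tat+/Meth replicates 1 to 3, and slide 3 the whole Tat+/Sal group with Tat+/Meth replicates 4 and 5. In every comparison with Tat−/Meth, therefore, slide and group cannot be told apart. Tat−/Sal and Tat+/Sal shared no slide either, and only Tat+/Meth links slides 2 and 3. The bright control corners, which carry no mouse sequence, reached a log2 signal of 14.66 to 15.06 for slide 1, against 16.80 to 17.42 for slides 2 and 3.

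The probe sequences were not among the data used here. The promoters of the receptors are shown instead for the 4 genes whose probes changed or moved together in these data. Each is the 250 bases before a RefSeq start site of the mouse build GRCm38.p6, 5′ to 3′. The capitals mark the GC box, GGGCGG on either strand (CCGCCC when read on the other one), and overlapping matches were counted. Matches are matches of letters, not sites.
Drd5, chr5:38319259-38319508, forward strand: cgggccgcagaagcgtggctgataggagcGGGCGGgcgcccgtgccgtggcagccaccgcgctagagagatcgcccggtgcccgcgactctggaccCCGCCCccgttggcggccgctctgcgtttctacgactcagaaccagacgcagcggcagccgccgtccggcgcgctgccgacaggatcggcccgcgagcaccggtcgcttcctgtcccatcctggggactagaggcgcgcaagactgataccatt
Drd2, chr9:49340153-49340402, forward strand: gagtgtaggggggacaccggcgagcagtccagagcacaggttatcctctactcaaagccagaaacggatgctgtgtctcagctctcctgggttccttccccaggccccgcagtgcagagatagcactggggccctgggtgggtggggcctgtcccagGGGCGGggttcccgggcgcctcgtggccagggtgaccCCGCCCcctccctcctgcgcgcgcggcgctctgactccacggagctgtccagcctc
Drd3, chr16:43761971-43762220, forward strand: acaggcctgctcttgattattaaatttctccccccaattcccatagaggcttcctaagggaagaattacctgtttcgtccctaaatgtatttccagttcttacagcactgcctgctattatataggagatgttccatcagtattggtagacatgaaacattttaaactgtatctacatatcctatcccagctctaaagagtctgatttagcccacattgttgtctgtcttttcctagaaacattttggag
Drd4, chr7:141291768-141292017, forward strand: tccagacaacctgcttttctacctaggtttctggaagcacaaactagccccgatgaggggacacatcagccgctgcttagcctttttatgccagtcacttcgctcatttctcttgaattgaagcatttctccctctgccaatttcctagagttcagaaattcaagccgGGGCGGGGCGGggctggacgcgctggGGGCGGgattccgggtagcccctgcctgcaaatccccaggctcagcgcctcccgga
GC content was 71.2% in the Drd5 window and 68.8% in that of Drd2, against 56.8% in that of Drd4 and 39.2% in that of Drd3, with a median of 52.4% over 32851 promoter windows of the same length. The GC box occurred 3 times in the Drd4 window, 2 times in that of Drd2 and 2 times in that of Drd5. The Drd3 window did not hold it, and 32.7% of all windows did. No window of the 5 genes, the 2 start sites of Drd1 included, held TATAAA (held by 12.4% of all windows), the cyclic AMP element TGACGTCA (1.55%), its shorter core TGACG (17.8%) or the AP-1 motif TGANTCA (6.75%), on either strand. The windows of Drd2 and Drd3, whose probe levels moved together from mouse to mouse as described further on, therefore shared none of these motifs. They also differed widely in base composition. The Drd3 window, however, lies inside the listed span of its gene (chr16:43754015-43825982), so it precedes an internal start site. The bases before the outer start of Drd3 were not compared. The Drd2 and Drd4 windows end slightly past the listed starts of their genes (49340360 and 141291974).

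Levels are log2 values of the background-subtracted signal, scaled so that all arrays had the same 75th percentile. All 5 receptor probes were well above background on all 20 arrays and none was saturated. Levels of different probes depend on the probe as well as on the RNA and were not set against each other.

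Drd1, the main dopamine receptor of direct pathway neurons, was the steadiest of the 5. Its group mean was 13.58 ± 0.07 (SD, n = 5) in Tat−/Meth mice, 13.53 ± 0.12 in Tat+/Sal mice, 13.48 ± 0.10 in Tat−/Sal mice and 13.45 ± 0.05 in Tat+/Meth mice. Every neighbouring pair in that order overlapped in range. The SD of Drd1 within groups was 0.09, and 10.1% of the 15102 genes tested had a smaller one, where the median gene had 0.15. For the other receptors it was 0.17 for Drd5, 0.20 for Drd4, 0.22 for Drd2 and 0.26 for Drd3.

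Drd5, the second D1-like receptor, was highest in Tat−/Meth. The 5 arrays of that group read 8.03, 8.22, 7.93, 7.98 and 7.88. Tat−/Sal arrays read 7.61, 7.62, 7.66, 7.50 and 7.64. All 5 Tat−/Meth values thus lay above every Tat−/Sal value. The share of all genes that separated likewise is not given here. Between these groups 50.2% of all genes tested had a limma adjusted p under 0.05. Tat+/Sal arrays read 7.80, 7.86, 7.69, 7.39 and 7.54, also below every Tat−/Meth array. Tat+/Meth arrays read 7.44, 7.65, 7.51, 7.38 and 7.96, and the last of these reached into the range of Tat−/Meth. The remaining 3 groups, with means of 7.66 ± 0.19 for Tat+/Sal, 7.60 ± 0.06 for Tat−/Sal and 7.59 ± 0.23 for Tat+/Meth, overlapped throughout.

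Drd4, the D2-like receptor best known from the cortex, was the receptor with the widest gap between groups. In Tat−/Meth the readings were 6.98, 6.86, 7.08, 6.70 and 6.55. Tat−/Sal arrays read 7.90, 8.09, 8.14, 7.99 and 8.03. The lowest Tat−/Sal array stood above the highest Tat−/Meth array by more than the whole range of either group. Tat+/Sal arrays read 8.0, 7.90, 8.10, 7.62 and 7.52. Tat+/Meth arrays read 8.04, 7.95, 7.67, 7.59 and 7.54. Those 3 groups overlapped one another and none of their 15 arrays reached down to Tat−/Meth. How many of all genes set Tat−/Meth apart in this way is not given here. On the linear scale and before scaling, the Drd4 signal was 73.4 to 110 intensity units for Tat−/Meth mice, 250 to 323 for Tat−/Sal mice, 191 to 298 for Tat+/Sal mice and 182 to 291 for Tat+/Meth mice.

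Drd2, the receptor of indirect pathway neurons, gave means of 11.38 ± 0.19 for Tat+/Sal mice, 11.30 ± 0.30 for Tat−/Meth mice, 11.27 ± 0.17 for Tat−/Sal mice and 11.03 ± 0.21 for Tat+/Meth mice (n = 5 each). The Tat+/Meth values were 11.15, 11.06, 10.67, 11.16 and 11.11. Tat+/Sal arrays read 11.50, 11.34, 11.11, 11.32 and 11.61. The 2 Tat+ groups overlapped at the single low Tat+/Sal array. The Tat−/Meth values were 11.20, 11.33, 11.53, 11.60 and 10.83, and Tat−/Sal arrays 11.02, 11.48, 11.29, 11.26 and 11.31. Tat−/Meth spread on both sides of Tat−/Sal.

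Drd3, the D2-like receptor of the ventral striatum, gave means of 9.83 ± 0.20 for Tat−/Sal mice, 9.78 ± 0.19 for Tat+/Sal mice, 9.55 ± 0.23 for Tat+/Meth mice and 9.55 ± 0.39 for Tat−/Meth mice. Its Tat−/Meth values were 9.44, 9.58, 9.87, 9.91 and 8.95, the last being the lowest of all 20. Tat−/Sal arrays read 9.53, 10.06, 9.85, 9.78 and 9.94. Both groups overlapped. Its Tat+/Meth values were 9.79, 9.66, 9.18, 9.63 and 9.51, and Tat+/Sal arrays 9.97, 9.78, 9.51, 9.69 and 9.95. These overlapped as well.

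**Figure D1:**
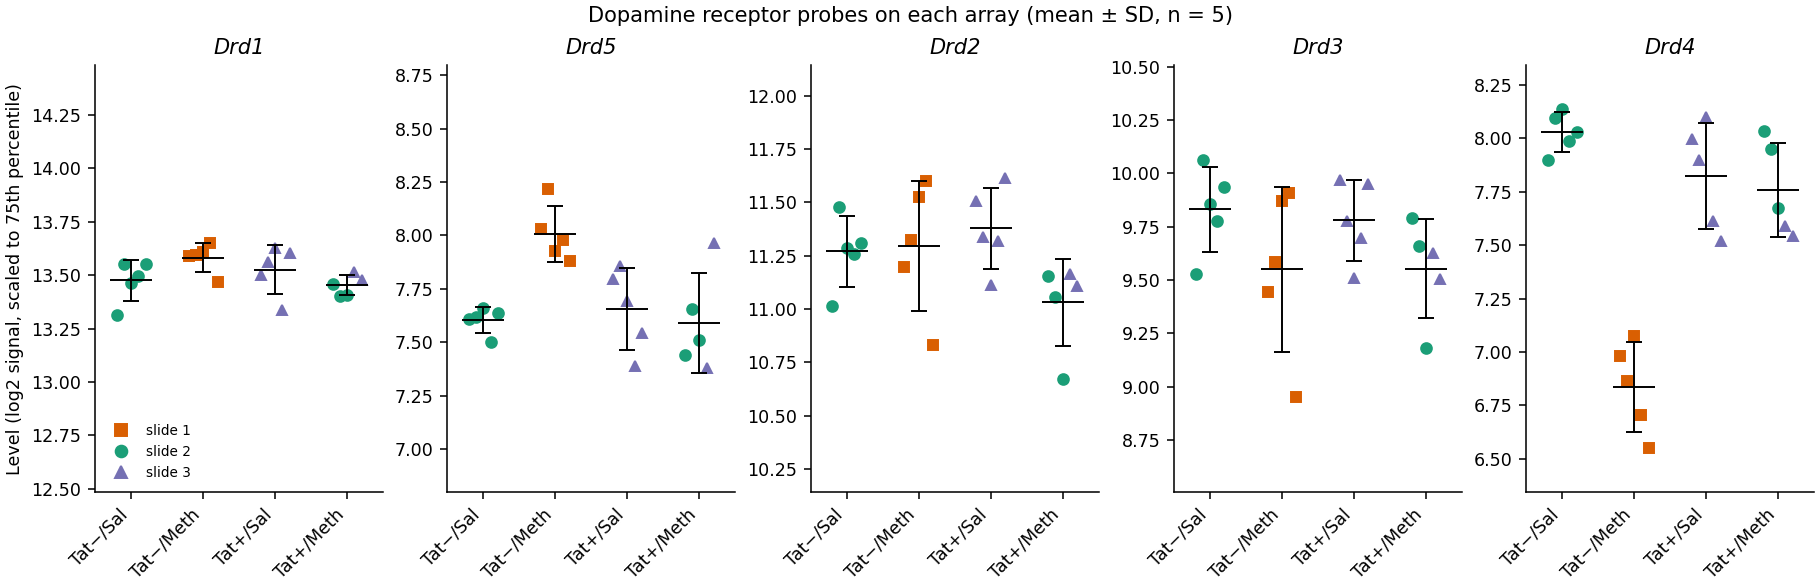
Level of each dopamine receptor probe (log2 signal scaled to the 75th percentile of the array) on the 20 arrays, by group, with 1 panel per gene, every panel spanning the same log2 range and symbols giving the slide. Black lines are group means with SD (n = 5). The 5 Tat−/Meth arrays of slide 1 stand below all others for Drd4 (6.55 to 7.08) and near the top for Drd5 (7.88 to 8.22), and the groups overlap for Drd1, Drd2 and Drd3.

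What Meth sensitization changed without Tat is asked by setting Tat−/Meth against Tat−/Sal. With arrays scaled to their 75th percentile, Drd4 fell and Drd5 rose, and no test of Drd1, Drd2 or Drd3 passed. Drd4 was lower by 2.29-fold (log2 difference -1.20 ± 0.12 (SE), limma adjusted p = 3.2e-07). A gene was called where the Benjamini-Hochberg adjusted p was under 0.05 with more than 2-fold change. That was met by 1 of the 5 receptors, beside 6.85% of the 15102 genes tested (6.48% called lower and 0.371% higher). Drd5 was higher by 1.32-fold (0.40 ± 0.10, adjusted p = 0.00351), short of 2-fold. At the adjusted p alone, 2 of 5 receptors passed, beside 50.2% of all genes, which is no more than the background share. The differences were 0.11 for Drd1 (95% interval -0.02 to 0.23), 0.03 for Drd2 (-0.26 to 0.31) and -0.28 for Drd3 (-0.61 to 0.05), all with that scaling.

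All genes together shifted between these groups, with a median difference of 0.14, and the size of that shift depended on the scaling, being -0.29 without scaling and 0.26 with each array scaled to its median. Measured against the median gene, Drd4 stood at -1.34 with the scaling used, at -1.33 without scaling and at -1.34 with median scaling. Drd5 was higher by 0.26, 0.27 and 0.26 in the same order. Its plain difference, however, was -0.02 without scaling (adjusted p = 0.912), so the rise of Drd5 is a rise relative to the other genes of the array. Without scaling Drd1 turned to -0.31 (adjusted p = 0.0156) and Drd3 stood at -0.70 (adjusted p = 0.00582), so that 3 receptors, these and Drd4, passed the adjusted p. Drd3 stood at -0.42 against the median gene, Drd2 at -0.11 and Drd1 at -0.03. Another background correction was normexp, with an offset of 50 intensity units added to every corrected signal. With it the Drd4 difference shrank to -0.71 (limma adjusted p = 7.26e-06) and no longer reached 2-fold. The offset is large beside the Drd4 signal of Tat−/Meth, 73.4 to 110 units before scaling. Its part in the smaller difference was not tested. In tissue RNA, fewer cells that use Drd4 and less Drd4 RNA in each such cell cannot be told apart.

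What Tat changed in sensitized mice is asked by setting Tat+/Meth against Tat−/Meth, which shares the Tat−/Meth arrays with the one above. Drd4 was 0.92 ± 0.12 higher in Tat+/Meth (adjusted p = 5.95e-06), with all 5 Tat+/Meth arrays above every Tat−/Meth array. Drd5 was lower by 1.34-fold (-0.42 ± 0.10, limma adjusted p = 0.00232), with 4 of 5 arrays below. The share of all genes whose arrays separated likewise is not given here. Neither reached 2-fold, so none of the 5 was called, beside 7.22% of all genes, and 2 of 5 passed at the adjusted p alone, beside 54.4%. The median gene shifted by -0.15. Drd1 (-0.13, adjusted p = 0.0735), Drd2 (-0.27, adjusted p = 0.105) and Drd3 (0.0014, adjusted p = 0.995) did not pass. Leaving out the Tat−/Meth array of replicate 5, which had the lowest Drd2 and Drd3 of its group, brought 4 receptors past the adjusted p, Drd2 with -0.38 and Drd1 with -0.16 in addition to Drd4 and Drd5.

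In the 3 comparisons without Tat−/Meth no receptor passed. Tat+/Sal vs. Tat−/Sal asks what Tat changed without Meth, but these groups lay on slides 3 and 2 and shared no slide. There the differences ran from -0.20 ± 0.12 for Drd4 (adjusted p = 0.363) to 0.11 ± 0.14 for Drd2 (adjusted p = 0.695), beside 0.0199% of all genes called and 1.42% past the adjusted p. Tat+/Meth vs. Tat+/Sal asks what Meth changed in Tat+ mice. Drd2 had the widest difference there, -0.35 ± 0.14 (95% interval -0.63 to -0.06), with an unadjusted p = 0.0195 in limma that became 0.321 after adjustment. Drd3 stood at -0.23 (-0.56 to 0.11), Drd1 at -0.07, Drd5 at -0.07 and Drd4 at -0.07 (-0.33 to 0.19). Of all 15102 genes, 0 were called (0%) and 0 passed the adjusted p in limma, while 1838 had an unadjusted p under 0.05. The methods' t-test gave Drd2 an unadjusted p as well (0.0247), and 0.401 after adjustment. Against Tat−/Sal, Tat+/Meth differed by -0.27 in Drd4 (95% interval -0.53 to -0.01, unadjusted p = 0.0403 and adjusted p = 0.64 in limma), by -0.28 in Drd3, by -0.24 in Drd2 and by -0.02 each in Drd1 and Drd5, with 0 genes called (0%) and 1177 at an unadjusted p under 0.05.

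**Figure D2:**
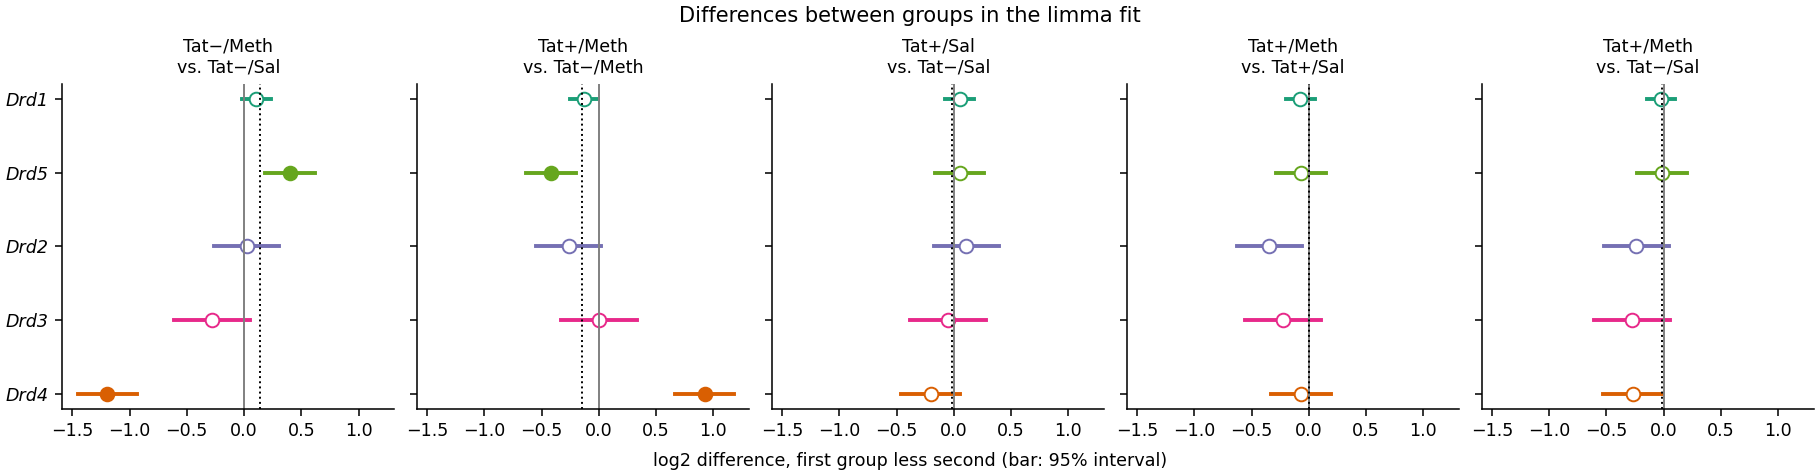
Differences of the 5 receptors between groups in the limma fit (log2, first group less second), 1 panel per comparison. Points are differences, filled at an adjusted p under 0.05, bars are 95% intervals, the grey line is 0 and the dotted line the median of all genes tested. Filled points are Drd4 and Drd5 in the 2 comparisons that hold Tat−/Meth, with Drd4 at -1.20 and 0.92 and Drd5 at 0.40 and -0.42.

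The interaction asks whether Meth acted differently with Tat: the difference of Tat+/Meth from Tat+/Sal, less the difference of Tat−/Meth from Tat−/Sal. It was 1.13 ± 0.17 for Drd4 (adjusted p = 7.2e-05, called), made of -0.07 in Tat+ mice and -1.20 in Tat− mice. For Drd5 it was -0.47 ± 0.15 (adjusted p = 0.0179), made of -0.07 and 0.40. Called genes were 7.44% of all genes, and 36% passed the adjusted p. The interaction of Drd2 was -0.37 (adjusted p = 0.139), that of Drd1 -0.18 (adjusted p = 0.103) and that of Drd3 0.05 (adjusted p = 0.876).

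**Figure D3:**
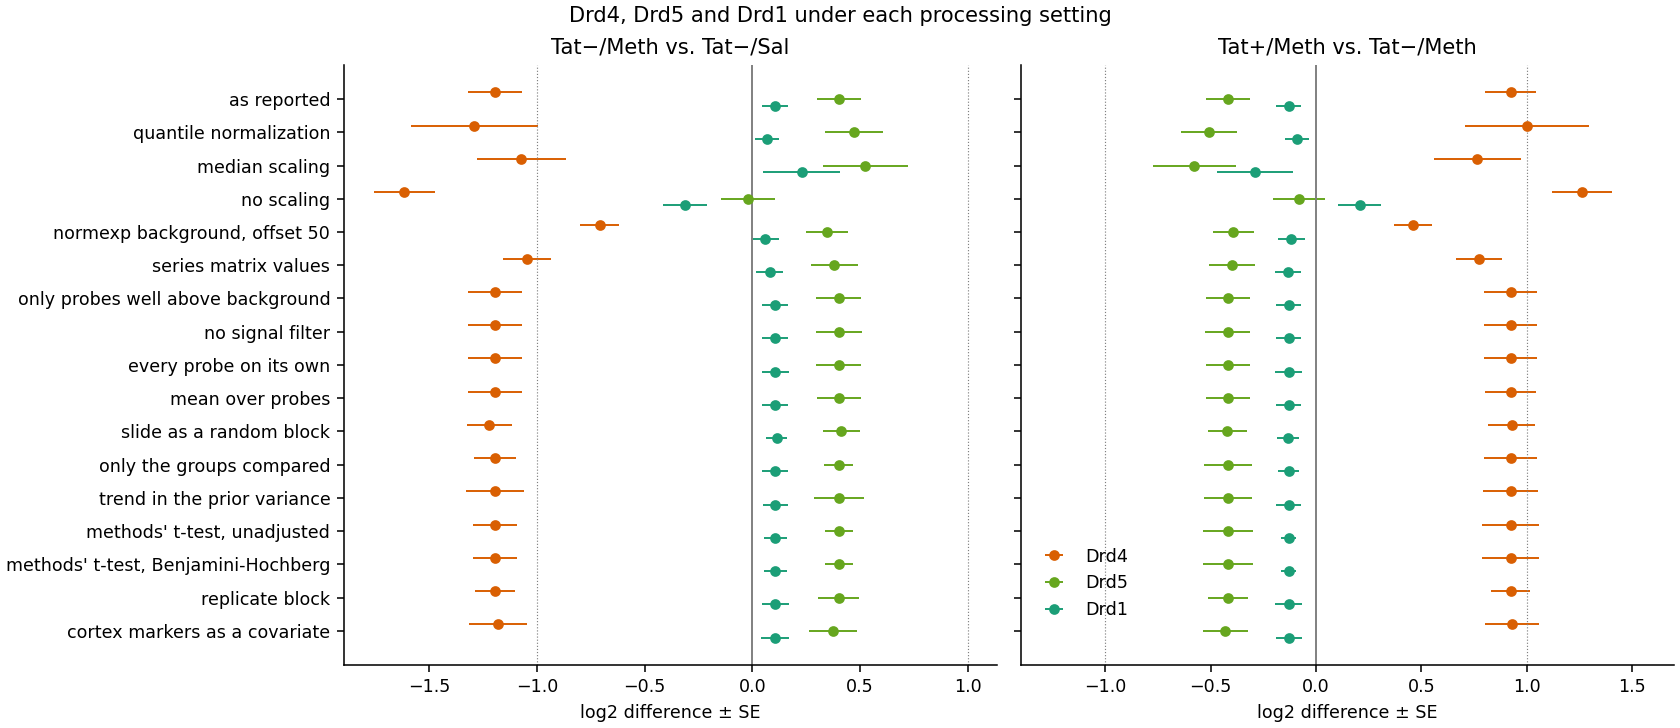
Differences of Drd4, Drd5 and Drd1 (log2 ± SE) under each processing setting, for the 2 comparisons with Tat−/Meth. Grey dotted lines mark 2-fold. Drd4 keeps its direction under every setting shown, from -1.62 to -0.71 in Tat−/Meth vs. Tat−/Sal, whereas Drd5 lies at -0.02 and Drd1 at -0.31 in the same comparison without scaling.

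Within a slide, groups could be compared without the difference between slides, for Tat+/Meth alone. On slide 2 the 3 Tat+/Meth arrays averaged 7.89 for Drd4 and the 5 Tat−/Sal arrays 8.03. On slide 3 the 2 Tat+/Meth arrays averaged 7.57 and the 5 Tat+/Sal arrays 7.83. The Tat+/Meth group itself thus differed between slides by -0.32 in Drd4, on 3 and 2 arrays. Drd2 was 0.31 lower in Tat+/Meth on slide 2 (10.96 against 11.27) and 0.24 lower on slide 3 (11.14 against 11.38). Over the 10 such tests no exact two-sided permutation p, adjusted, was under 0.476. The smallest unadjusted p this design can give is 0.0357 on slide 2 and 0.0952 on slide 3, so slide 3 cannot reach 0.05. No value within a slide exists for Tat−/Meth.

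The probes of Drd2 and Drd3 moved together from mouse to mouse. Without the probe sequences, whether either probe also binds the transcript of the other gene was not tested. With every value taken less its group mean, so that differences between groups play no part, Pearson's r of the 2 probes over the 20 arrays was 0.968 and Spearman's rho 0.925. Permuting the arrays within groups gave p = 1e-05 for each, the smallest that 100000 permutations can give (adjusted p = 0.00035 over 35 relations computed). Mice low in Drd2, such as Tat−/Meth replicate 5 (10.83) and Tat+/Meth replicate 3 (10.67), were low in Drd3 too (8.95 and 9.18). Without those 2 arrays, the farthest from the median of Drd2, r was 0.943. It was 0.977 on the 8 arrays of slide 2, 0.922 on the 7 of slide 3 and 0.943 on the 15 arrays outside slide 1. It was 0.977 without scaling, 0.989 with median scaling and 0.961 after quantile normalization.

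Among 15053 other genes, Drd3 had the highest r with Drd2, and Drd2 the highest with Drd3. No other pair of receptors passed. Drd1 and Drd2, the markers of the 2 pathways, had r = 0.526 (rho 0.535, permutation p = 0.0184, adjusted p = 0.214). Drd1 and Drd3 had r = 0.509 (rho 0.442, adjusted p = 0.214), and on slide 3 alone these r were 0.054 and -0.0045. Drd4 had r between 0.137 and 0.333 with the other 4 receptors over all slides. Its r with Drd2 was 0.695 on slide 2 and -0.635 on slide 3, and that with Drd3 was 0.799 and -0.359, of opposite sign on the 2 slides. These arrays share their dissection and their labelling. Of the measures that could move with these, the mean log2 level of the tested cortex markers had r = 0.397 with Drd2 and 0.391 with Drd3. For the ventral striatum and olfactory tubercle markers, averaged likewise, r was -0.400 and -0.406. The striatum markers, averaged with the receptors left out, had -0.177 and -0.145. The 75th percentile of the unscaled array had 0.310 and 0.273, and the share of probes well above background -0.385 and -0.491. The adjusted permutation p of these 10 relations was at least 0.298, and their part in the shared movement was not tested.

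**Figure D4:**
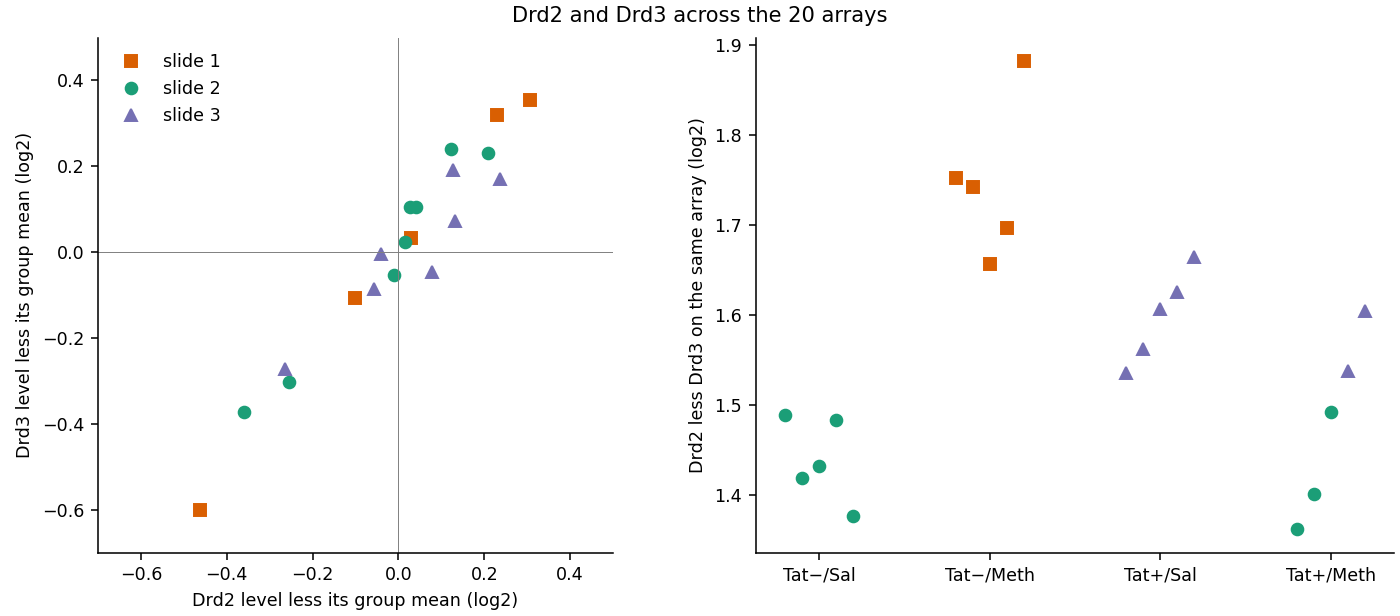
Left, Drd2 against Drd3, each less its group mean (log2), for the 20 arrays, with symbols for the slide: the points follow 1 line (r = 0.968) on every slide. Right, the difference Drd2 less Drd3 on the same array (log2) by group: it lies between 1.36 and 1.49 on slide 2, 1.54 and 1.66 on slide 3, and 1.66 and 1.88 on slide 1.

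Since Drd2 and Drd3 were measured on the same array, the difference of their log2 levels needs no scaling. It measures whether both changed alike and not which transcript is more abundant. Tat−/Meth mice averaged 1.75 ± 0.09, and Tat−/Sal mice 1.44 ± 0.05 (change 0.31, higher in 5 of 5 arrays, exact permutation p = 0.00794, adjusted p = 0.0198 over 15 tests of 3 pairs of receptors). It was 1.60 ± 0.05 in Tat+/Sal, again above every Tat−/Sal array (change 0.16, exact permutation adjusted p = 0.0198). In Tat+/Meth it was 1.48 ± 0.10, which was 0.27 below Tat−/Meth (exact permutation adjusted p = 0.0198). These comparisons were added after the data had been seen, and the share of all gene pairs that separated likewise is not given here.

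The same values differed by slide. Within Tat+/Meth the difference ran from 1.36 to 1.49 for slide 2, and from 1.54 to 1.60 for slide 3. On slide 2 Tat−/Sal read 1.38 to 1.49, and on slide 3 Tat+/Sal read 1.54 to 1.66. Groups on 1 slide therefore overlapped, with a change of -0.02 on slide 2 and -0.03 on slide 3 (exact permutation adjusted p = 0.571 each, over 6 tests), while the 8 arrays of slide 2 (1.36 to 1.49) lay below the 7 of slide 3 (1.54 to 1.66) and the 5 of slide 1 (1.656 to 1.88). The highest array of slide 3, at 1.665, stood just above the lowest of slide 1. Drd5 less Drd4 averaged 1.17 ± 0.22 over Tat−/Meth and -0.43 ± 0.08 over Tat−/Sal arrays (change 1.60, exact permutation adjusted p = 0.0198). As Drd5 was already higher and Drd4 lower on all 5 Tat−/Meth arrays, this difference had to separate the groups fully. Its p was therefore fixed in advance and adds nothing to the results of the single receptors. Tat+/Sal arrays averaged -0.17 ± 0.17 and Tat+/Meth arrays -0.17 ± 0.37. For this pair slides 2 and 3 overlapped, at -0.60 to -0.16 and -0.40 to 0.42. Within Tat+/Meth it averaged -0.35 on slide 2 and 0.10 on slide 3. With Tat−/Meth alone on slide 1, its slide and group cannot be told apart for this pair.

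Drd1 less Drd2, the difference of the 2 pathway markers, averaged 2.42 ± 0.18 over Tat+/Meth and 2.20 ± 0.08 over Tat−/Sal, higher in 5 of 5 arrays (change 0.22, exact permutation adjusted p = 0.0198). This comparison too was added after the data had been seen, which the adjustment does not cover. The share of all gene pairs that separated likewise is not given here. On slide 2 alone the change was 0.26 (exact permutation p = 0.0357, adjusted p = 0.214), with 3 Tat+/Meth arrays at 2.31 to 2.74 and 5 Tat−/Sal arrays at 2.07 to 2.30. Tat+/Meth replicate 3 held the highest value. Without it the change was 0.14 over all slides (higher in 4 of 4 arrays, unadjusted exact permutation p = 0.0159) and 0.12 on slide 2 (unadjusted exact permutation p = 0.0952, the smallest those arrays can give). Tat+/Sal read 2.15 ± 0.23 and Tat−/Meth 2.29 ± 0.24. The change between Tat+/Meth and Tat+/Sal was 0.27 (exact permutation p = 0.0873, adjusted p = 0.146).

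The genes around the receptors came from lists of the dopamine pathway. In Tat−/Meth vs. Tat−/Sal 35% of all genes passed the adjusted p higher and 15.3% lower, and the counts below are read against those shares. Of 9 genes of D1-type neurons, 4 were higher and 1 lower, with a median of 0.16 beside 0.14 for all genes. Pdyn, which encodes the opioid precursor prodynorphin, was 0.51 ± 0.11 higher (adjusted p = 0.000684). Chrm4, the muscarinic M4 receptor, was 0.63 lower (-0.63 ± 0.11, adjusted p = 0.000108). Tac1, the substance P precursor, did not pass (0.07, adjusted p = 0.403).

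Of 7 tested genes of D2-type neurons, 1 was higher and 1 lower (median 0.13). The lower one was Penk, the enkephalin precursor (-0.30 ± 0.06, adjusted p = 0.000284). The adenosine receptor Adora2a (0.24 ± 0.29, adjusted p = 0.504) and the orphan receptor Gpr6 (0.01, adjusted p = 0.901) did not pass. Genes named for either pathway thus stood on both sides of 0.

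Further down the pathway the counts were also mixed. Of 17 G protein and adenylyl cyclase genes, 6 were higher and 3 lower (median 0.17). Among the latter were Adcy5, the main striatal adenylyl cyclase (-0.42 ± 0.06, adjusted p = 9.04e-06), and Gnal, the Golf subunit that couples Drd1 to it (-0.22 ± 0.07, adjusted p = 0.011). Of 22 genes of protein kinase A, DARPP-32 and the phosphodiesterases, 7 were higher and 4 lower (median 0.11). Ppp1r1b, which encodes DARPP-32, stood at -0.02 (adjusted p = 0.859), and the striatal phosphodiesterase Pde10a at 0.22 (adjusted p = 0.0848).

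Of 21 genes of receptor desensitisation and the Akt branch, 5 were higher and 2 lower (median 0.03). Arrb2, the beta-arrestin that takes receptors off the membrane, was 0.41 ± 0.12 higher (adjusted p = 0.0113). Rgs9, which ends G protein signals in the striatum, was lower (-0.24 ± 0.06, adjusted p = 0.00276). Of 16 tested receptor partners and GIRK channels, 4 were higher and 1 lower (median 0.15), with Ncs1, a calcium sensor that binds Drd2, 0.29 ± 0.07 higher (adjusted p = 0.00297).

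Of 10 tested genes of dopamine synthesis and transport, 1 was higher and 1 lower (median 0.17). The lower one, Pitx3, a transcription factor of dopamine neurons, was the sole gene of these lists that was called (-1.33 ± 0.41, 2.51-fold, adjusted p = 0.0112). Th, the rate-limiting enzyme of dopamine synthesis, stood at -0.06 (adjusted p = 0.589), and Slc6a3 was below the level set for testing.

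In Tat+/Meth vs. Tat−/Meth Pitx3 was 2.05 ± 0.41 higher (adjusted p = 0.000359), Chrm4 0.77 higher, Adcy5 0.40 higher and Penk 0.31 higher, while Arrb2 was 0.69 lower and Pdyn 0.40 lower (adjusted p from 1.1e-05 to 0.00456). Background shares there were 16% higher and 38.5% lower. Of 9 genes of D1-type neurons 1 was higher and 5 lower, and of 7 of D2-type neurons 1 and 1. Of 17 G protein and adenylyl cyclase genes 4 were higher and 7 lower. Of 22 genes of protein kinase A, DARPP-32 and the phosphodiesterases, 3 were higher and 6 lower. For desensitisation and the Akt branch it was 2 and 5 of 21, and for receptor partners and GIRK channels 1 and 5 of 16. Dopamine synthesis and transport had 2 higher and 0 lower of 10. In Tat+/Meth vs. Tat+/Sal 0 genes of these 7 lists passed, as did 0 of all genes. In Tat+/Sal vs. Tat−/Sal 1 gene of the receptor partners and GIRK channels passed, higher, and 0 of the other 6 lists. Ppp1r1b was higher there by 0.29 ± 0.07, in 5 of 5 arrays, at a limma adjusted p = 0.0567. Those groups shared no slide, so slide and Tat are not separated in this value. The share of all genes with such a separation is not given here.

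**Figure D5:**
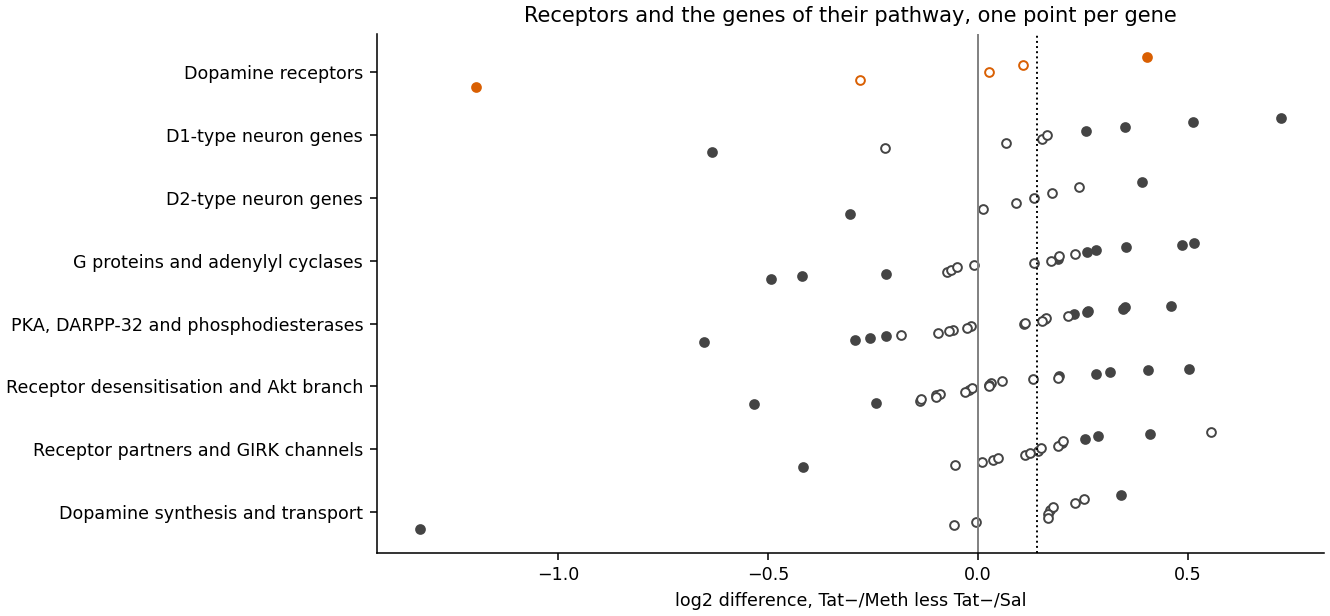
Difference of each tested gene between Tat−/Meth and Tat−/Sal (log2), by list, with the receptors in orange. Filled points passed the adjusted p of 0.05, the grey line is 0 and the dotted line the median of all genes (0.14). Points of every list lie on both sides of 0, and Drd4 (-1.20) and Pitx3 (-1.33) lie farthest to the left.

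Markers of other cells were set beside these results. The summed striatum markers spanned 20.95 to 21.01 over Tat−/Meth and 21.01 to 21.21 over Tat−/Sal arrays, with 3 of 22 higher and 6 lower. The summed cortex markers spanned 14.06 to 14.43 and 14.03 to 14.73. Of the 11 tested cortex markers 2 were higher and 2 lower in Tat−/Meth, and their median difference was -0.56. Against the same Tat−/Sal arrays that median was -0.46 in Tat+/Sal and -0.51 in Tat+/Meth. It was -0.09 in Tat+/Meth vs. Tat−/Meth, so the shift was not particular to Tat−/Meth. With the mean log2 level of the tested cortex markers as a covariate, the limma difference of Drd4 was -1.18 (adjusted p = 2.3e-06) and that of Drd5 0.38 (adjusted p = 0.0114). The 7 cholinergic interneuron markers, of the cells that use Drd5, had 4 higher and 1 lower, with a median of 0.26. Astrocyte markers also had a median of 0.26, with 5 higher and 1 lower of 10. So did choroid plexus markers, with 0 higher and 1 lower of 8 tested. The shift was thus not particular to the cholinergic interneuron markers. Summed microglia markers were 16.88 to 17.03 in Tat−/Meth and 17.65 to 17.89 over the other groups. Of the 10, however, 3 were higher and 2 lower than in Tat−/Sal, 1 of these called lower. Their median difference was -0.03, so the lower sum does not describe the median microglia marker. Summed thalamus and midbrain markers were 12.13 to 12.40 in Tat−/Meth beside 12.38 to 12.69 in Tat−/Sal, with 1 of 7 tested higher and 2 lower (median -0.39). Summed vessel markers were 15.11 to 15.62 beside 14.91 to 15.21, with 3 of 8 higher and 0 lower (median 0.08). The part of the striatum, microglia, thalamus and midbrain, and vessel markers in the Drd4 and Drd5 results was not tested. Nor was that of the cholinergic interneuron, astrocyte and choroid plexus markers.

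The genes most like Drd1 from mouse to mouse, by r of the values less their group means over the 20 arrays, included Eif3b (0.867), Helz (0.858), Wipf2 (0.846) and Ncor1 (0.842). Those most like Drd2, the receptors left out, were Adcy3 (0.908), an adenylyl cyclase, Idh3b (0.878), Polr3c (0.861), Mdn1 (0.859) and Abcf2 (0.857). Adcy3 and Mdn1 were also among the 5 genes most like Drd3 (0.855 and 0.835), which were listed after those of Drd2 had been seen. With median scaling, which left a shift common to many genes in the arrays, the r values of the genes named for Drd1 and Drd2 were 0.949 to 0.979. They describe 20 arrays, and with 15049 genes searched high values arise readily.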

How the data were processed

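RNA of 20 mice was measured on 1-colour Agilent arrays, 1 array per mouse. The deposited intensity values are, per the file headers, background-subtracted signals written for each spot by the authors' Feature Extraction 10.7.3.1 and not normalized between arrays. The labels name cy3 as the dye, the methods Cy5. Spots that the software marked as outliers (4278 over all arrays) were left out, the log2 values of an array were shifted so that all arrays shared 1 value of their 75th percentile, and of 27656 probes with a gene symbol the brightest stood for its gene. Genes with a mean of at least 6 in 1 or more groups were tested (15102). All groups were fitted together in limma 3.58.1 (R 4.3.3), with 1 mean per group and Benjamini-Hochberg adjustment over all genes. The replicates are separate mice by the labels, and their number limits the precision. Single values had exact two-sided permutation tests (scipy 1.17.1).

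The members, lists, motifs and tests were chosen with earlier results of these data known. Named genes are the receptors, the lead genes of each pathway list, the gene called with the widest change per comparison, and the 5 genes most like Drd1 and Drd2, of which 1 is not reported here. Comparisons of receptors on the same array, their correlations and the genes like Drd3 were added after seeing the data. Replicate numbers did not pair the mice, since same-numbered arrays had mean correlations of 0.01 to 0.13. The alternatives were other scalings, background correction, filters, tests, thresholds, probe summaries, slide, replicate and cortex terms, the deposited series matrix (the same signals with a constant added per array, values below 1 set to 1), and each array left out in turn.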

Additional observations from a re-analysis of the deposited data

Results flagged for a closer look

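Drd2 in Tat+/Meth had 1 array apart from the other 4. Replicate 3 read 10.67 where the others lay between 11.06 and 11.16, and its gap to the nearest was 0.786 of the range of the group, above Dixon's limit of 0.71 for 5 arrays. Such a gap arises by chance in about 1 of 20 groups, and 20 groups were examined. Without that array the difference of Tat+/Meth from Tat+/Sal was -0.26 in place of -0.35. The same array was the lowest of its group for Drd3 (9.18).

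The effect of Meth differed between Tat+ and Tat− mice for Drd4, by 1.13 (limma adjusted p = 7.2e-05), and for Drd5, by -0.469 (limma adjusted p = 0.0179). Both differences hold the Tat−/Meth arrays, the only ones on slide 1, so the groups and the slides cannot be told apart. Drd4 was called lower in Tat− mice with Meth and stood at -0.07 in Tat+ mice. Drd5 was 0.40 higher in Tat− mice with Meth and stood at -0.07 in Tat+ mice.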

How the results depend on the processing

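Drd4 kept its direction and its side of the adjusted p in Tat−/Meth vs. Tat−/Sal (-1.62 to -0.71), as well as in Tat+/Meth vs. Tat−/Meth (0.46 to 1.26) and in the interaction (0.58 to 1.61) under every alternative run, left-out arrays included. The slide could not be fitted as a fixed term for any comparison with Tat−/Meth, and so its part in those results was not tested. Over 30 differences of the receptors and 37 other settings and left-out arrays, 1032 values kept direction and side of the threshold, 14 passed it anew, 2 lost it and 42 changed sign. Where no cause is named below, the cause was not tested. Signals were far above background for Drd1 and Drd2 and lowest for Drd4 in Tat−/Meth, where background correction matters most.

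Without scaling, Tat−/Meth vs. Tat−/Sal gave -0.31 for Drd1, -0.019 for Drd5, -0.40 for Drd2 and -0.70 for Drd3. Drd1 and Drd3 were then past the threshold, and with Drd4 3 receptors passed the adjusted p. Tat+/Meth vs. Tat−/Meth gave 0.21 for Drd1, -0.080 for Drd5, which lost the threshold, and 0.073 for Drd2. Tat+/Sal vs. Tat−/Sal gave -0.10 for Drd1, -0.10 for Drd5 and -0.041 for Drd2, and the interaction 0.30, 0.017 and 0.11 for Drd1, Drd5 and Drd2. One receptor, Drd4, was then called in Tat+/Meth vs. Tat−/Meth (1) and 1 passed the adjusted p there and 1 in the interaction. With median scaling Drd3 stood at -0.16 in Tat+/Meth vs. Tat−/Meth, at 0.021 in Tat+/Sal vs. Tat−/Sal and at -0.18 in the interaction, where Drd5 (-0.70) lost the threshold, 1 receptor passed and 0 were called. With quantile normalization Drd2 stood at -0.013 in Tat−/Meth vs. Tat−/Sal and 1 receptor was called in Tat+/Meth vs. Tat−/Meth. With normexp Drd2 stood at -0.0018 in Tat−/Meth vs. Tat−/Sal and Drd3 at -0.0019 in Tat+/Meth vs. Tat−/Meth, and neither that comparison of Tat− mice nor the interaction had a receptor called (0 each). The series matrix values left 0 called in the interaction.

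With slide as a fixed term, Drd5 stood at 0.016 in Tat+/Meth vs. Tat+/Sal, and Tat+/Sal vs. Tat−/Sal gave -0.021 for Drd1, -0.087 for Drd5, -0.068 for Drd2 and 0.12 for Drd4. With slide as a random term, Drd1 passed in Tat+/Meth vs. Tat−/Meth (-0.13), and in the interaction Drd1 (-0.19) and Drd2 (-0.40) made 4 receptors past the adjusted p. That fit used a correlation within slides of -0.06. The methods' t-test without adjustment put 1 receptor past the threshold in Tat+/Meth vs. Tat+/Sal (Drd2, -0.35), 1 in Tat+/Meth vs. Tat−/Sal (Drd4, -0.27), Drd1 in the interaction (-0.18) and Drd1 in Tat+/Meth vs. Tat−/Meth (-0.13), the last also with adjustment (-0.13). With no limit on the fold, 2 receptors were called in each of the comparisons with Tat−/Meth and 2 in the interaction. With an adjusted p under 0.01 and 3-fold, 0 were called in Tat−/Meth against Tat−/Sal and 0 in the interaction. With the cortex markers as a covariate, Drd3 stood at 0.071 in Tat+/Sal vs. Tat−/Sal and at -0.022 in the interaction.

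Same-numbered arrays did not move together, and a fit with the replicate number as a block changed no call, with Drd4 at -1.20 (adjusted p = 1.28e-07) and Drd5 at 0.40 (adjusted p = 0.00279) in Tat−/Meth vs. Tat−/Sal.

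Leaving out 1 array at a time moved values as follows. Without Tat−/Meth replicate 5, the receptors past the adjusted p in Tat+/Meth vs. Tat−/Meth went from 2 to 4, with Drd1 and Drd2 added, and Drd2 passed in the interaction. Without Tat+/Sal replicate 4, Drd1 passed in Tat+/Meth vs. Tat−/Meth and in the interaction. The ranges over left-out arrays were, in Tat+/Meth vs. Tat−/Meth, -0.16 to -0.11 for Drd1, -0.38 to -0.18 for Drd2 and -0.15 to 0.095 for Drd3. In the interaction they were -0.23 to -0.14 for Drd1, -0.49 to -0.28 for Drd2 and -0.10 to 0.15 for Drd3. The sign also changed for Drd2 in Tat−/Meth vs. Tat−/Sal (-0.051 to 0.14), Drd3 in Tat+/Sal vs. Tat−/Sal (-0.13 to 0.016), Drd5 in Tat+/Meth vs. Tat−/Sal (-0.11 to 0.037) and Drd4 in Tat+/Meth vs. Tat+/Sal (-0.14 to 0.00043), none of which passed the threshold at any time.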
